A study of Mus musculus with 2 samples.

Results

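Olfactory receptor (OR) gene clusters are described here by the 438 windows, of 43941 windows of 50 kb with allele-specific ATAC-seq counts, that overlap a protein-coding OR gene. OR genes form the largest gene family of the mouse. Their products are G protein-coupled receptors in the cilia of olfactory sensory neurons, where each neuron expresses 1 receptor gene from 1 of its alleles and keeps the other members silent in heterochromatin. The genes lie in tandem arrays on many chromosomes, have short coding regions and promoters poor in CpG, and are known for being silent and late replicating in cells outside the olfactory epithelium. Class I receptors, related to those of fish, sit in a single array on chromosome 7, and class II receptors occupy the other arrays. The arrays were examined here in embryonic stem cells, where no receptor is chosen for expression. The questions were how many allele-specific ATAC-seq counts they held and whether 1 parental genome held more of them.

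ATAC-seq, which maps open chromatin through the sites a transposase can reach, was made from 2 replicates of F121-6, a female hybrid embryonic stem cell line whose cross is given as 129 and CAS (Mus musculus castaneus). Both replicates belong to 1 group without a treatment, were grown in serum and LIF on mitomycin-C-inactivated embryonic fibroblast feeders, and are said nowhere to come from separate cultures, so that p-values measure only the spread between these 2 libraries. F121-6 is 1 line, so the 129 and CAS chromosomes compared are those of 1 cross, and the labels do not name the mother's strain. The deposited table gives a count for each allele and replicate in 43941 windows of 50 kb on chromosomes 1 to 19.

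RefSeq lists 1106 protein-coding OR genes on GRCm38.p6 (the primary sequence of mm10), all under Olfr symbols. Of these, 6 lie on the X chromosome and 1, Olfr100, is listed with a start coordinate below that of any window. These 7 were not analysed here, and the listed start of Olfr100 was not checked. The other 1099 genes, joined where they lay less than 500 kb apart, formed 52 clusters on 16 chromosomes. The members described below are the 438 windows of the table, 0.997% of all windows, that overlap an OR gene. They cover 831 of the 1099 genes. The remaining 268 genes lie in positions of the 50 kb grid that are not in the table and were not analysed here. Of 574 grid positions over OR genes, 136 (23.7%) were not in the table, against 3842 of 47345 (8.11%) elsewhere.

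The windows differed in gene content. There were 170 with 1 OR gene and 30 with 4 or 5, and 71 also overlapped a coding gene of another kind. A window holds everything in its 50 kb, so no count can be placed on a promoter, an exon or the space between genes. The column totals ran from 44026 to 59995 counts, and the OR windows held 266 (129) and 285 (CAS) of them in the first replicate and 467 and 493 in the second. The highest count in any OR window was 9. What is counted is not stated, so the read depth behind a count is unknown. Stem cell marker genes (Pou5f1, Nanog and 6 others) averaged 10.9 counts per window in replicate 1 and 13.6 in replicate 2 over their 14 windows, and fibroblast feeder markers (Col1a1, Thy1 and 6 others) averaged 1.25 and 2.42 over 12 windows. The part of feeder cells in the OR counts was not tested.

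Promoters of OR genes are shown first to let their base composition be seen beside the counts. The 5 sequences come from windows with the largest allelic differences described below and were picked after those values were seen. They run from 250 bases before to 50 bases after the RefSeq gene start on GRCm38.p6, 5′ to 3′ on the gene's own strand, and are RefSeq reference sequence, not that of the 129 or CAS genome. Capitals mark CG dinucleotides and, in Olfr924, the homeodomain-type motif TAATTA. Olfr875 is at chr9:37772387-37772686 on the plus strand, Olfr922 at chr9:38815158-38815457 and Olfr924 at chr9:38847866-38848165 on the plus strand, Olfr175 at chr16:58826712-58827011 and Olfr419 at chr1:174250927-174251226 on the minus strand.
Olfr875: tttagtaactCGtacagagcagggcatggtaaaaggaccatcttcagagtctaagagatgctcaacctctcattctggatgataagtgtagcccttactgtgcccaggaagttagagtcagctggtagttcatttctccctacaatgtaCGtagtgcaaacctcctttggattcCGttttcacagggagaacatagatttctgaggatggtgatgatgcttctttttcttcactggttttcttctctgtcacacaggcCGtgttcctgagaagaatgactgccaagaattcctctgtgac
Olfr922: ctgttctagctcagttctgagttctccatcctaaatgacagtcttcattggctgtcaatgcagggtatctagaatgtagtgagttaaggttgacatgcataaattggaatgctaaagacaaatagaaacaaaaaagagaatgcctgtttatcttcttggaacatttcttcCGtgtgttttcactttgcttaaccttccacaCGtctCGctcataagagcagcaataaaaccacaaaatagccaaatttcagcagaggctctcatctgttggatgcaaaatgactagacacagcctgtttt
Olfr924: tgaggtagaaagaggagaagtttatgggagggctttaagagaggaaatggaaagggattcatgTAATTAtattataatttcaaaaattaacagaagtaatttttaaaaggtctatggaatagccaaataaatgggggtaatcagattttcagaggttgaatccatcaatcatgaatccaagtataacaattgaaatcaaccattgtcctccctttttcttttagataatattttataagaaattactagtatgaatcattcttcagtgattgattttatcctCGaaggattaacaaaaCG
Olfr175: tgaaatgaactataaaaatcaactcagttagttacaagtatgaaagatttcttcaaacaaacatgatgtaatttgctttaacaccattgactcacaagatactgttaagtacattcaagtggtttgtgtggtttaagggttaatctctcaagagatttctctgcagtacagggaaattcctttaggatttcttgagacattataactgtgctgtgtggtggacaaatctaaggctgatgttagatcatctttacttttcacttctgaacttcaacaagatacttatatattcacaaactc
Olfr419: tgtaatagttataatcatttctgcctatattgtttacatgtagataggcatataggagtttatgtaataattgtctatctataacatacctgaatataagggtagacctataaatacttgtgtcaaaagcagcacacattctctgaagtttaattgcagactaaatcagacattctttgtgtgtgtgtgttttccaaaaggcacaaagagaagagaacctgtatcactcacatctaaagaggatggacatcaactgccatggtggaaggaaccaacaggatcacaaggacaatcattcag
These promoters hold 4 CG dinucleotides (Olfr875), 3 (Olfr922), 2 (Olfr924) and none (Olfr175 and Olfr419), and their GC content runs from 30.3% in Olfr924 to 44.7% in Olfr875.

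Across the family, RefSeq promoter sequences were matched for 934 of the 1099 genes, as 938 promoters. Their median GC content was 35.0% and their median number of CG dinucleotides 1, against 53.3% and 8 in the 31913 other promoters. No CG was present in 33.6% of OR promoters and in 4.60% of the others. For 679 of the 938 the RefSeq start is the ATG of the coding region, so that the sequence before it is not a mapped transcription start. The motif TAATTA, the core bound by homeodomain proteins such as Lhx2, reads the same on both strands. It occurred in 176 OR promoters (18.8%) and in 5.29% of all promoters of this length. CCCNNGGG, the form bound by Ebf proteins, also its own reverse complement, occurred in 29 (3.09%) and in 13.7% of all promoters. Neither comparison was matched for base composition, which differs between the sets as given above, so neither shows an excess or a lack of binding sites. The 2 motifs do not overlap in sequence. Among the 259 OR promoters whose start is not an ATG the share with CCCNNGGG was 7.72%. OR windows that hold a promoter with CCCNNGGG, 19 in number, averaged 2.47 counts in replicate 1 and 3.47 in replicate 2, against 1.11 and 2.03 in the 391 OR windows whose listed promoters lack it. With TAATTA the 110 windows averaged 0.991 and 1.94, and the 300 without it 1.24 and 2.15. A match of letters is no evidence of binding, and the counts of a window are not those of the promoter in it.

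OR clusters held fewer counts than the other windows of the table, and the fewest where no other coding gene shared the window. How reads were assigned to alleles is not stated, and its part in these levels was not tested. A low count is therefore not by itself a sign of closed chromatin. The mean over OR windows, both alleles summed, was 1.26 counts in replicate 1 and 2.19 in replicate 2, against 2.06 and 2.73 in the 43503 other windows. Relative to those windows the OR level was 0.611 and 0.802, a mean of 0.707 ± 0.135 (SD, n = 2). The median OR window held 2 counts over the 4 columns and the median other window 4. At 0 in all 4 columns were 132 of 438 OR windows, 30.1% (exact Clopper-Pearson 95% interval 25.9% to 34.7%), and 21.6% of the others. The interval covers counting error only and takes windows as independent, which neighbours are not.

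Compared with DNA that holds no coding gene, OR windows as a whole stood near the same level and OR windows without other genes below it. The 18534 windows of the table without any coding gene averaged 1.27 and 2.24 counts, so that all 438 OR windows, 71 of which hold another coding gene, stood at 0.987 and 0.977 of their level in the 2 replicates. The 367 OR windows without another coding gene stood at 0.750 and 0.854 of it. Windows with coding genes, none of them an OR gene, averaged 2.64 and 3.09. Within the OR windows, those 367 averaged 0.956 and 1.92, and the 71 with another coding gene averaged 2.82 and 3.62. OR windows with a neighbour of another kind were the fuller ones in both replicates.

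**Figure D1:**
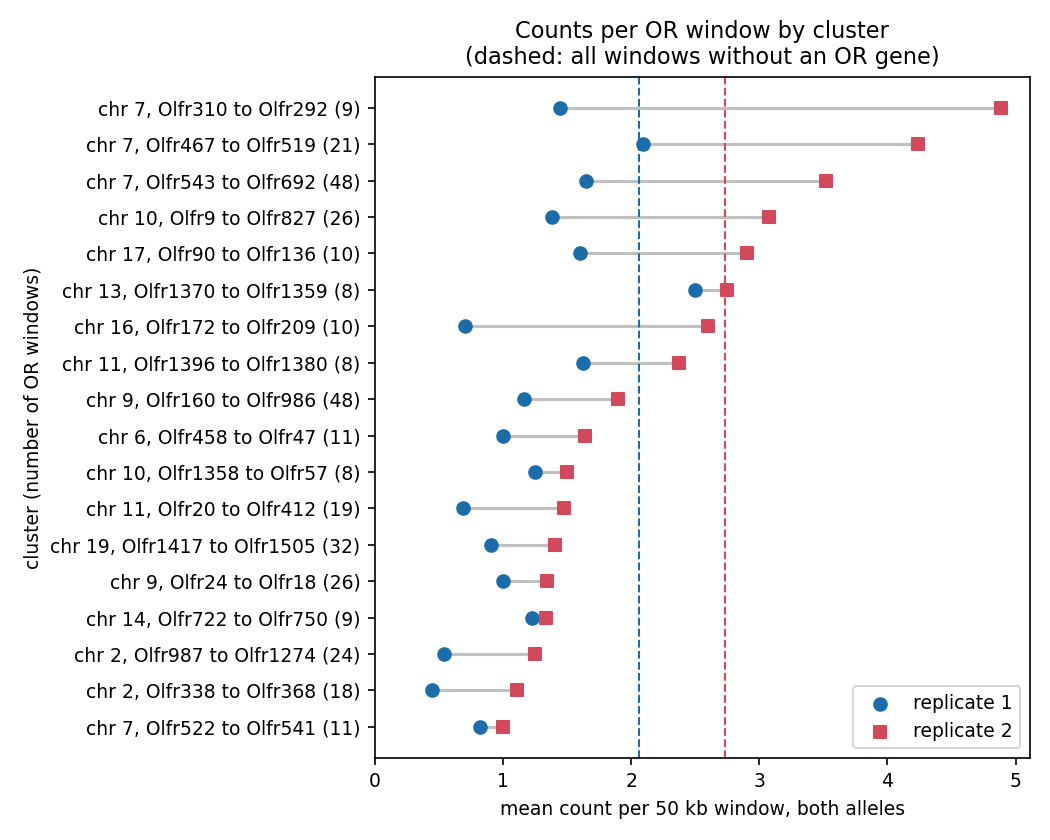
Mean count per OR window, both alleles summed, for each of the 18 clusters with 8 or more OR windows, with 1 point per replicate and dashed lines for the mean over all windows without an OR gene. In replicate 1 the points run from 0.444 to 2.50 and 16 of 18 lie below the other windows, and in replicate 2 they run from 1.00 to 4.89 and 12 of 18 do.

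The 2 replicates did not show this deficit equally. Replicate 2 held 1.74 times the counts of replicate 1 in OR windows and 1.33 times in the others, and 2.00 times in the OR windows without another coding gene. The ratio was 1.76 in windows without any coding gene and 1.29 in OR windows with another coding gene. Counts in replicate 2 alone were found in 23.1% of OR windows and 15.8% of the others, but in 22.9% of those others that hold no coding gene. Each OR level is therefore given per replicate, and the cause of the difference between replicates was not tested. Across the 438 OR windows the level in replicate 1 followed that in replicate 2 (Pearson r = 0.810, Spearman rho = 0.752), as it did across the other 43503 windows (r = 0.818). These are descriptions across windows, which share libraries and gene content and are not independent.

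At the borders of the arrays the level changed. For the 32 clusters of 5 or more genes, OR windows averaged 1.26 counts in replicate 1 and 2.25 in replicate 2. Windows at most 100 kb beyond the first or last gene averaged 3.74 and 4.76, and those 100 to 200 kb away 3.93 and 4.40. Farther out the mean fell to 2.29 and 2.54 at 300 to 400 kb and was 2.45 and 2.74 at 750 to 1000 kb. The flanks are gene-rich: another coding gene lay in 85.2% of windows within 100 kb and in 13.7% of OR windows inside. Compared only among windows without another coding gene, the 352 OR windows inside averaged 0.974 and 1.96 counts, and the 96 windows within 500 kb outside averaged 1.60 and 2.45. Among windows that do hold another coding gene, the 56 OR windows inside averaged 3.04 and 4.13, and the 428 flanking windows 3.50 and 4.04. The step at the border was thus smaller at matched gene content, and in replicate 2 it was in the other direction for windows with another coding gene. The share of windows at 0 in every column showed little step. It was 32.4% inside and 33.3% outside without another coding gene, and 14.3% and 13.3% with another coding gene.

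**Figure D2:**
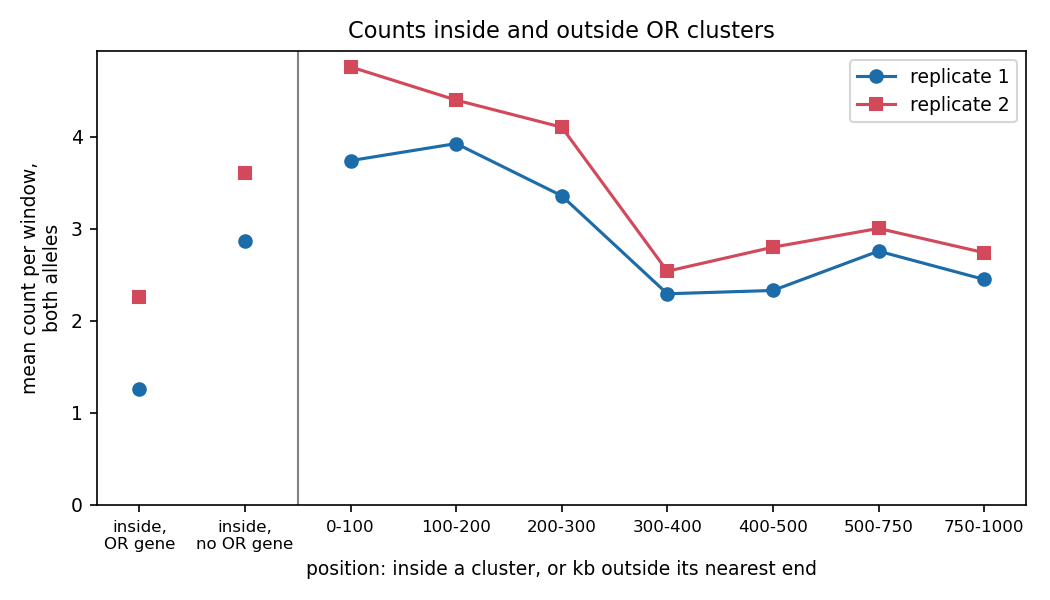
Mean count per window, both alleles summed, inside OR clusters of 5 or more genes and in bins of distance from the cluster edge in kb, 1 colour per replicate. OR windows inside lie lowest in both replicates (1.26 and 2.25) and the first 200 kb outside lie highest (3.74 to 4.76).

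The level did not follow the number of OR genes in a window in 1 direction. Of windows without another coding gene, those with 1 OR gene averaged 1.07 and 1.77 counts, those with 2 held 0.811 and 1.68, and those with 3 held 0.811 and 2.01. Windows with 4 or more averaged 1.47 and 3.33. Chromosome 7 accounted for most of those counts: of the 30 windows with 4 or more OR genes, none of which holds another coding gene, the 15 on chromosome 7 averaged 2.33 and 4.80 and the 15 on other chromosomes 0.600 and 1.87.

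OR windows of chromosome 7 held more counts than those of the other chromosomes together. The 102 on chromosome 7 averaged 1.72 counts in replicate 1 and 3.50 in replicate 2, the 336 on other chromosomes 1.12 and 1.79. At 0 in all 4 columns were 17.6% of the former and 33.9% of the latter. Of the 40 OR windows with 10 or more counts, 20 lie on chromosome 7. Single chromosomes with few OR windows were higher: the 14 on chromosome 1 averaged 2.00 and 3.93, with 1 at 0, and the 9 on chromosome 13 averaged 2.67 and 2.89. Outside the clusters, windows of chromosome 7 averaged 2.40 and 2.92 counts.

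The class I array (Olfr543 to Olfr692, chr7:102476773-105369317) holds 126 OR genes, all covered by its 48 OR windows, and 27 other coding genes. Its OR windows averaged 1.65 counts in replicate 1 and 3.52 in replicate 2, against 1.21 and 2.03 in the OR windows of all other clusters. Only 7 of 48 (14.6%) were at 0 in all 4 columns, against 125 of 390 (32.1%). The 39 class I windows without another coding gene averaged 1.36 and 3.08, and the 328 such windows elsewhere 0.909 and 1.78. The higher level was thus also seen without the neighbouring genes, but it was not particular to class I. All 102 OR windows of chromosome 7, class I included, averaged 1.72 and 3.50. Class II arrays of that chromosome lay on both sides: Olfr467 to Olfr519 averaged 2.10 and 4.24, and Olfr522 to Olfr541 averaged 0.818 and 1.00.

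Along the array the counts were uneven. It opens with fuller windows. The window of Olfr543, Olfr544 and Olfr545 also overlaps Rrm1 (a ribonucleotide reductase subunit). It held 1 count on the 129 and 4 on the CAS allele in replicate 1, and 4 and 5 in replicate 2. The next, with Olfr547 alone, held 5 and 5 in replicate 1 and 5 and 3 in replicate 2. The window of Olfr555, Olfr556 and Olfr557 with Trim68 held 5 and 4, then 4 and 5. These 3 lie within the first 250 kb and held 14, 18 and 18 counts in total, and no other class I OR window reached more than 15 counts.

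Beta-globin genes are embedded in the array. Just before them, 3 windows from 103650001 to 103800000, with 9 OR genes from Olfr623 to Olfr67, were at 0 in all 4 columns. The next window, with Hbb-bt, Hbb-bs, Hbb-bh2 and Hbb-bh1 and no OR gene, held 1 count on each allele in replicate 1, then 1 on 129 and 5 on CAS in replicate 2. Its neighbour, with Hbb-y (an embryonic globin), Olfr66 and Olfr64, held 2 and 2, then 2 and 5. In both of these windows the alleles were level in replicate 1, and CAS was above 129 in replicate 2.

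Past the globin genes, Olfr638 to Olfr642 (chr7:104000001-104050000) gave the highest single count of any OR window, with 2 counts on the 129 and 1 on the CAS allele in replicate 1 and 3 and 9 in replicate 2. The allele that was higher differed between replicates. A stretch of Trim genes, which encode antiviral proteins, interrupts the array, and its window with Trim6 and Trim34a held 3, 4, 6 and 6 counts, in the order 129 and CAS of replicate 1 and 129 and CAS of replicate 2, which is used for all sets of 4 values below.

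**Figure D3:**
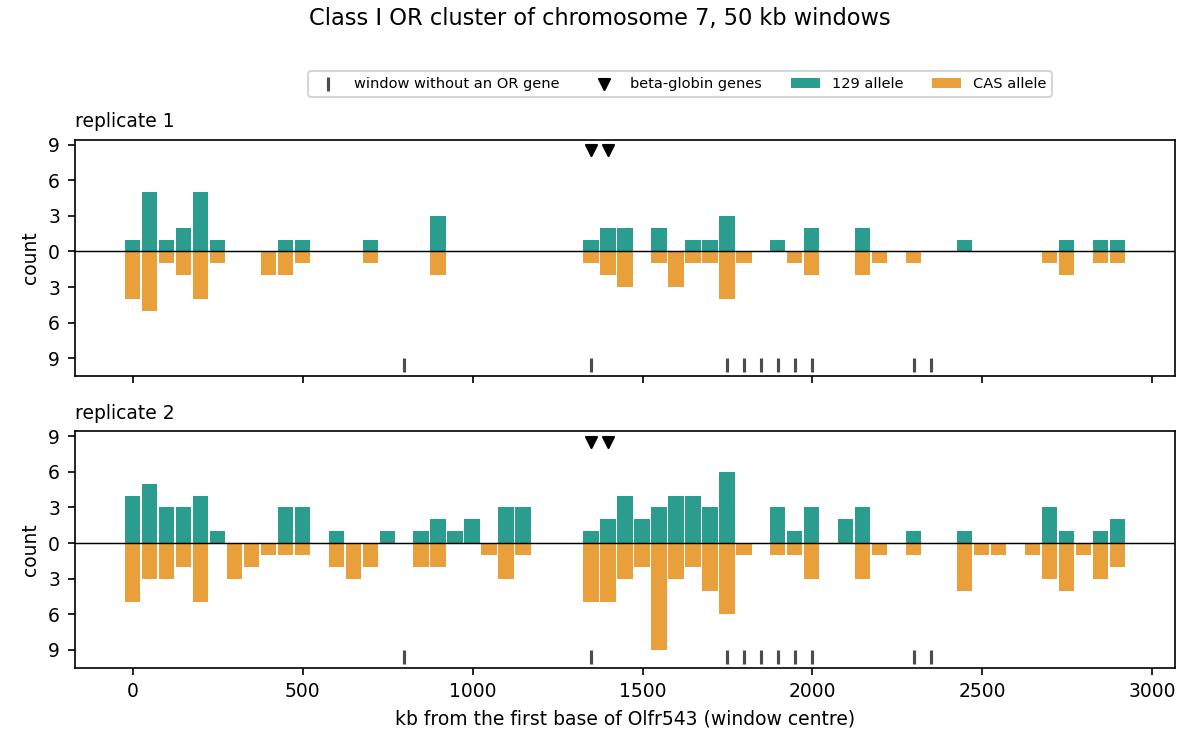
Counts per 50 kb window along the class I array on chromosome 7, plotted by distance from its first gene, with 1 panel per replicate, 129 counts drawn upward and CAS counts downward, ticks for windows without an OR gene and triangles for the beta-globin genes. Windows near the start, such as those of Olfr547 and Olfr555, reach 18 counts in total, single later windows (Trim6 and Olfr638) reach 19 and 15, and 3 adjoining windows before the beta-globin genes are at 0 in every column.

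Class II arrays on chromosome 7 differed among themselves. The array of Olfr467 to Olfr519 (chr7:107814586-108894405, 42 genes in 21 OR windows, no other coding gene inside its span) held 22, 22, 43 and 46 counts and averaged 2.10 and 4.24 per window. Olfr310 to Olfr292 (15 genes, 9 windows, no other coding gene) held 7, 6, 19 and 25, a mean of 1.44 and 4.89, the highest of any cluster with 8 or more OR windows in replicate 2. Olfr522 to Olfr541 held 5, 4, 5 and 6, and 8 of its 11 OR windows were at 0. It contains the longest uninterrupted run of OR windows at 0 in all 4 columns, 7 windows with 13 genes from Olfr525 to Olfr53 (chr7:140300001-140650000).

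Of the arrays elsewhere, the one with the most genes was sparse in counts. The chromosome 2 array from Olfr987 to Olfr1274 (chr2:85330967-90401674) has 222 genes, but 78 of its 103 grid positions are not in the table and 56 of its genes were covered. Its 24 OR windows held 7, 6, 16 and 14 counts, a mean of 0.542 and 1.25, and 7 were at 0. Also on chromosome 2, Olfr1275 to Olfr1318 (37 genes, 14 covered) held 0, 2, 4 and 3 counts. These values describe the covered minority of both arrays.

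Olfr160 to Olfr986 on chromosome 9 (94 genes, 91 covered, 48 windows) held 29, 27, 51 and 40 counts, a mean of 1.17 and 1.90, with 10 windows at 0. The second chromosome 9 array, Olfr24 to Olfr18 (35 genes, 26 windows), held 10, 16, 17 and 18, with 11 windows at 0. On chromosome 19, Olfr1417 to Olfr1505 (63 genes, 32 windows) held 12, 17, 22 and 23, and 19 windows were at 0. That array combined many empty windows with 2 of the 3 fullest OR windows.

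The chromosome 10 array, Olfr9 to Olfr827 (58 genes, 26 windows), held 22, 14, 43 and 37 counts, a mean of 1.38 and 3.08, and 3 windows were at 0. On chromosome 17, Olfr90 to Olfr136 (46 genes, 21 covered) held 9, 7, 16 and 13, a mean of 1.60 and 2.90. On chromosome 11, Olfr20 to Olfr412 (30 genes, 19 windows) held 5, 8, 10 and 18, a mean of 0.684 and 1.47. The ratio of replicate 2 to replicate 1 ran from 1.09 to 3.71 over the 18 clusters with 8 or more OR windows and was above that of the other windows in 14. It was highest in Olfr172 to Olfr209 on chromosome 16 (3, 4, 12 and 14 counts).

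Small clusters were often empty. Of the 9 clusters of a single gene, 8 are in the table and 4 of those had a count: Olfr267, Olfr466, Olfr49 and Olfr19. Olfr466 on chromosome 13 and Olfr49 on chromosome 14 each held 2 counts in every column. In all, 6 clusters in the table had no count and 2 have no window in the table.

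Of the 10 OR windows with the highest totals, 5 also held another coding gene. Olfr1423 on chromosome 19 (chr19:12000001-12050000), alone in its window, held 6, 7, 7 and 8 counts, the highest total of any OR window at 28. The window of Olfr1359 on chromosome 13 held 7, 6, 8 and 6, and also contains the histone genes H2bc13, H2ac13, H3c10, H2bc14 and H4c11. Olfr1417 with Stx3, a syntaxin of membrane fusion, held 5, 6, 7 and 6.

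Olfr750 with the ribonuclease genes Rnase11, Rnase12, Ang and Rnase4 held 5, 4, 6 and 4. Olfr510 (5, 2, 5 and 4) and the window of Olfr700 to Olfr703 (3, 4, 4 and 4) had no other coding gene. In these 6 windows the 2 alleles of a replicate differed by at most 3 counts.

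The balance of the alleles was close to that of the chromosomes on which the clusters lie. The 129 share, which is the percentage of counts that fell on the 129 allele, was 48.3% over all OR windows in replicate 1 (exact 95% interval 44.0% to 52.5%) and 48.6% in replicate 2 (45.4% to 51.9%). The remainder of the same chromosomes, weighted by the OR counts on each, gave 48.9% and 50.0%, both inside the intervals.

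For the 12 clusters with 40 or more counts, the exact 95% interval of each share included the share of its chromosome in both replicates, and also 50%. The intervals are wide at these counts and take counts as independent, so this does not show that the alleles are equal. Relative to their chromosomes, 5 clusters had a higher 129 share in both replicates, 5 a lower one, and 2 changed side. The array farthest below was Olfr20 to Olfr412 on chromosome 11, with 38.5% (13.9% to 68.4%) in replicate 1 and 35.7% (18.6% to 55.9%) in replicate 2, where the rest of chromosome 11 had 48.6% and 50.9%. Next came Olfr1417 to Olfr1505 on chromosome 19 with 41.4% and 48.9% against 51.3% and 56.2%, and Olfr24 to Olfr18 on chromosome 9 with 38.5% and 48.6% against 49.5% and 52.2%. Olfr433 to Olfr220 on chromosome 1 had 41.2% and 47.6% against 47.0% and 48.9%.

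Farthest above was Olfr1370 to Olfr1359 on chromosome 13, with 55.0% (31.5% to 76.9%) and 54.5% (32.2% to 75.6%) against 47.4% and 48.3%. It was followed by Olfr90 to Olfr136 on chromosome 17 with 56.3% and 55.2% against 51.8% and 52.6%, Olfr160 to Olfr986 on chromosome 9 with 51.8% and 56.0%, and Olfr467 to Olfr519 on chromosome 7 with 50.0% and 48.3%. Olfr310 to Olfr292 had 53.8% and 43.2% against 45.9% and 46.7% on the rest of chromosome 7, above it in replicate 1 and below it in replicate 2. The class I array had 44.3% (33.1% to 55.9%) and 44.4% (36.8% to 52.2%). The rest of chromosome 7 was also below 50%, as given above.

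**Figure D4:**
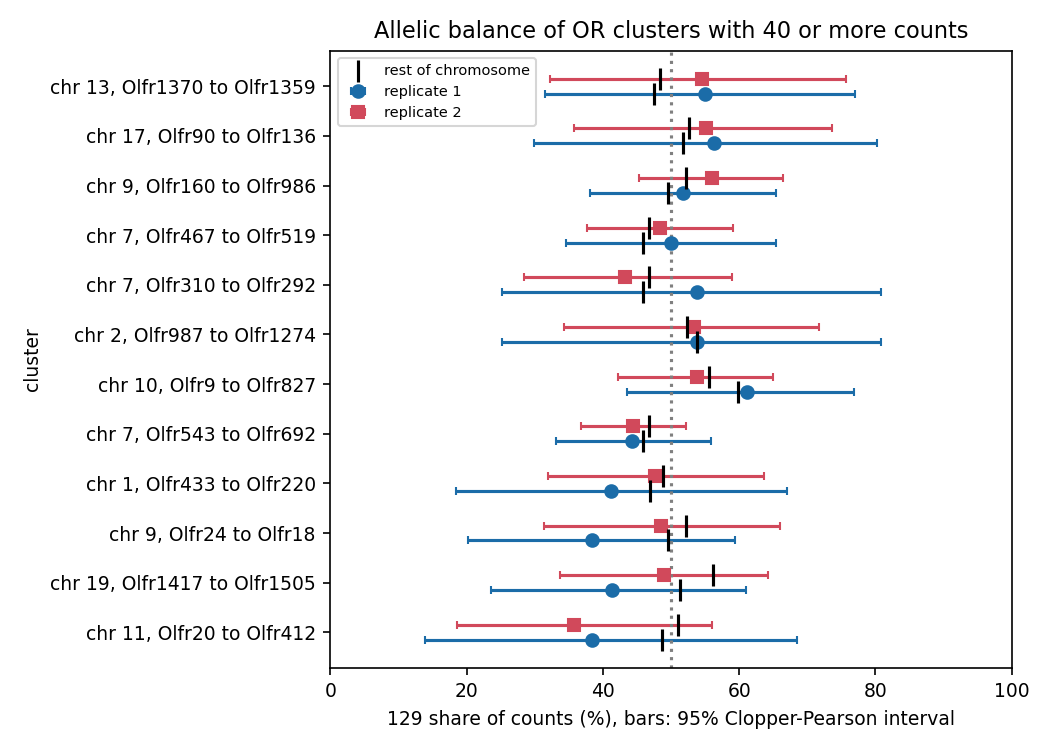
129 share in percent of the 12 OR clusters with 40 or more counts, per replicate, with exact 95% intervals that cover counting error only and marks for the share of the rest of the chromosome. All 24 intervals include the chromosome's share, with Olfr20 to Olfr412 on chromosome 11 lowest (38.5% and 35.7%).

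Allelic differences of whole clusters were tested with edgeR's quasi-likelihood test, with every cluster as 1 unit, windows without an OR gene inside its span included, and the rest of the table in 1 Mb bins. An adjusted p below 0.05 counts as a call, Benjamini-Hochberg over all 2352 units with 10 or more counts. None of them passed (0.0%), 68 had an unadjusted p below 0.05, and of the 31 OR clusters tested none had either. Adjusted p was 0.997 for each OR cluster. The log2 ratio of 129 to CAS was -0.44 ± 0.40 (SE derived from the F statistic) for Olfr20 to Olfr412, and was -0.74 with only its OR windows. Values without a replicate are not fitted ratios but log2 differences with a prior count added, which draws them toward 0. For this array they were -0.47 without replicate 1 and -0.24 without replicate 2. For Olfr1370 to Olfr1359 the fitted ratio was 0.39 ± 0.27, and the differences were 0.21 without replicate 1 and 0.49 without replicate 2. For the chromosome 10 array the fitted ratio was 0.40 ± 0.41. But the array's 129 share of 61.1% and 53.8% stood beside 59.8% and 55.6% on the rest of chromosome 10. With chromosome totals as library sizes the ratio was -0.058. The class I array had -0.29 ± 0.32, and -0.12 with chromosome totals. With the replicate as a block, 7 units (0.298%) passed, none of them an OR cluster, whose lowest adjusted p was 0.705. A difference of the size of these standard errors could not have been detected, so these values do not show that the alleles are equal.

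In single windows the alleles were often level, in OR windows as in the others. Of the 306 OR windows with a count, 31 (10.1%) had more on the 129 allele in both replicates and 33 (10.8%) more on the CAS allele in both. In 25 (8.17%) the differences were opposite. Among the 34111 other windows with a count these shares were 11.5%, 12.6% and 9.70%. The alleles were tied in both replicates in 46 OR windows and in 5690 of the others. The remaining OR windows were tied in 1 replicate. Both 129 counts were above both CAS counts in 20 OR windows (6.54%), where 8.14% of all windows with a count did so, and CAS above 129 in 27 (8.82%), where 8.72% did. The members' counts were near the background on both sides. The difference between alleles in replicate 1 was weakly related to that in replicate 2 over the 306 windows (r = 0.245, rho = 0.236, a description), as over the 34111 others (r = 0.302).

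Differences of 2 counts or more in the same direction in both replicates were seen in 8 OR windows, 4 on each side, and in the opposite directions in 1. The 4 are 1.31% of the OR windows with a count on each side, where 1.6% of all windows with a count were higher on 129 by this rule and 1.92% on CAS, so such windows were not more frequent in the clusters than in the table. On the 129 side, the window of Olfr875 (chr9:37750001-37800000), whose promoter is printed above with 4 CG, held 4, 1, 5 and 1 counts. About 1 Mb on in the same array, the window of Olfr922, Olfr923 and Olfr924 (chr9:38800001-38850000) held 2, 0, 4 and 1. Olfr763 and Olfr765 on chromosome 10 held 3, 1, 4 and 1, and Olfr19 on chromosome 16 held 2, 0, 2 and 0. In each of these 4 windows both 129 counts were above both CAS counts, by differences of 2 to 4.

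On the CAS side, the window of Olfr494 and Olfr495 (chr7:108350001-108400000) held 1, 4, 3 and 6 counts. Olfr506 to Olfr509 (chr7:108600001-108650000), in the same array, held 2, 4, 3 and 5, and Olfr510 in the next window went the other way with 5, 2, 5 and 4. Olfr419 on chromosome 1, printed above without a CG, held 0, 2, 1 and 3, and Olfr175 on chromosome 16 held 0, 2, 0 and 2. Neighbouring windows of 1 array thus lay on opposite sides.

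**Figure D5:**
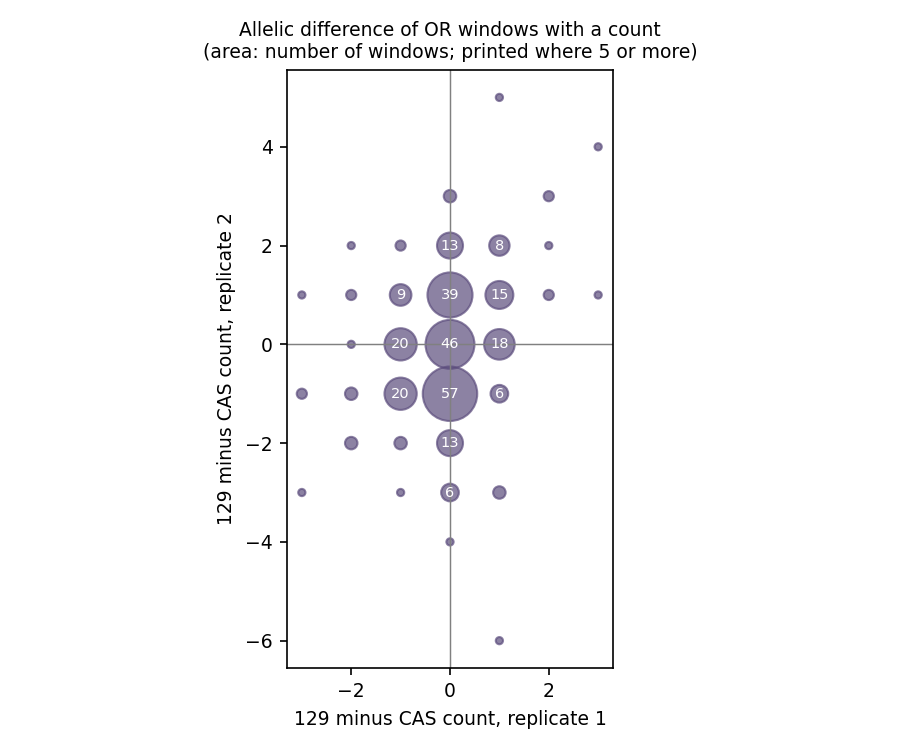
Difference between the 129 and CAS counts of each OR window in replicate 1 (horizontal) and replicate 2 (vertical), over the 306 OR windows with a count, with the area of a point proportional to the number of windows. Most windows lie at or next to 0 in both replicates, and 8 differ by 2 or more in the same direction in both, 4 toward each allele.

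edgeR's test on single windows called none of 34417 windows with a count (0.0%), and 910 had an unadjusted p below 0.05. Of the 306 OR windows none was called and 10 had an unadjusted p below 0.05, with a lowest adjusted p of 0.999. limma on centred square roots of the same windows called 78 (0.227%), none of them an OR window, with the lowest OR value at Olfr875 (adjusted p = 0.103). Only when limma was fitted over all 43941 windows, those at 0 in every column included, were OR windows among the 619 called (1.41%). These were 5 of 438: Olfr875 (adjusted p = 0.011), Olfr922 to Olfr924 (0.0316), Olfr19 (0.0295), Olfr175 (0.0305), and Olfr807 to Olfr810 on chromosome 10 (1, 0, 6 and 1 counts, 0.0413). Windows at 0 have no spread and so lower the spread that this fit pools, and no allelic difference of an OR window passed in any fit without them.

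For the receptors studied most in olfaction, the mean of the list rested largely on 1 window. The 6 windows that hold 9 of 12 such genes averaged 1.67 counts in replicate 1 and 2.83 in replicate 2, none at 0, against 1.26 and 2.19 over all OR windows. Of their 10 counts in replicate 1 and 17 in replicate 2, the window of Olfr544 and Olfr545 held 1, 4, 4 and 5. That window also overlaps Rrm1. Of the 12, Olfr17 (P2), Olfr16 (MOR23) and Olfr73 (mOR-EG) lie in no window of the table. Olfr160 (M72) and Olfr151 (M71) on chromosome 9 share a window that held 0, 0, 0 and 1 counts, and Olfr1507 (MOR28) and Olfr1509 (MOR244-3) on chromosome 14 share one with 0, 1, 0 and 0. These 4 receptors were near the lower end of all OR windows.

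Olfr2 (I7, which responds to octanal) held 1, 1, 2 and 1. Olfr558 held 1, 1, 1 and 0 and Olfr78 held 1, 1, 1 and 3 over its windows, and both genes are also known from tissues outside the nose, such as vessels. Olfr544 and Olfr545 (S50) share the window of Rrm1 given above with 1, 4, 4 and 5, the only one on the list with more on the CAS allele in both replicates, and none had more on 129.

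Genes that act with the receptors in neurons were compared from lists. Of 14 genes of OR signalling, from the G protein subunit Gnal to the channel subunit Cnga4, 13 are in the table and 12 had a count. Their 28 windows averaged 2.46 and 2.68 counts, and in both replicates the 129 allele was ahead for 3 genes and the CAS allele for 1. Cnga4 lies on chromosome 7 at 105400024, within 50 kb of the last class I gene, and its window held 8, 5, 9 and 8 counts, a higher total (30) than any OR window. Omp, a marker of mature olfactory neurons, held 1, 0, 1 and 1, the lowest total of the 6 such markers listed. Those 6 (Omp, Gnal, Adcy3, Cnga4, Stoml3 and Rtp1) averaged 3.50 and 3.33 counts over 12 windows, 3 of them at 0. All windows without an OR gene averaged 2.06 and 2.73.

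For OR choice and silencing, which includes the homeodomain factor Lhx2, its cofactor Ldb1, the Ebf factors and the histone methyltransferases Ehmt1, Ehmt2 and Setdb1, 14 of 15 genes are in the table. All 14 had a count, the 129 allele was ahead in both replicates for 1 and the CAS allele for 3, and their 41 windows averaged 3.07 and 2.98. The trace amine-associated receptors, a small second family of olfactory receptors on chromosome 10, fall into 5 windows that averaged 1.80 in both replicates, inside the range of the OR clusters. Of these 15 genes 13 had a count, and in both replicates the 129 allele was ahead for 5 and CAS for 3, but genes that share a window share its counts. Among windows without an OR gene that had a count, 11.5% were higher on 129 in both replicates and 12.6% on CAS. The share over all genes was not computed, so the numbers of genes ahead in these 3 lists are descriptions only.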

How the data were processed

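ATAC-seq was made from 2 replicates of 1 group, F121-6 cells. The deposited values are counts, whole numbers with no visible normalization, in 4 columns (129 and CAS alleles of each replicate). Per the submitters' processing notes, Bowtie2, MACS2, SAMtools and bedtools were used with mm10, and no roles or versions are listed. The sources used here do not state how reads were assigned to alleles, what was counted or how windows were selected.

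A window was a member if any base overlapped a protein-coding RefSeq gene (GRCm38.p6) with the symbol Olfr plus digits. Genes with suffixed symbols such as Olfr715b counted as other coding genes. Genes less than 500 kb apart formed a cluster. Coordinates are 1-based. The members, clusters named and gene lists were chosen with earlier results of these data known.

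Allelic differences were tested with edgeR 4.0.16 (R 4.3.3; glmQLFit and glmQLFTest, TMM scaling) across all windows with at least 1 count, and across clusters and 1 Mb bins with at least 10 counts, with Benjamini-Hochberg adjustment over all of them and a threshold of 0.05. Alternatives were the replicate as a block, DESeq2 1.42.0 (size factors and Wald test), 1 library size per replicate, limma 3.58.1 on column-centred square roots (0.375 added to each count), filterByExpr with a minimum count of 10, chromosome totals as library sizes, a threshold of 0.1, other rules for OR windows and clusters, and leaving out each replicate. limma over all windows, and OR windows without another coding gene, were added after seeing the data. The replicate number pairs the alleles, since both come from 1 library. The fits were also run on simulated Poisson counts, whose outcome is not reported here and is not used as support. Shares have exact Clopper-Pearson 95% intervals (scipy 1.17.1) that cover counting error only.

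Clusters named are the 10 with most OR genes, the class I cluster, and of those with 40 or more counts the 5 highest and 5 lowest in 129 share relative to their chromosome. Windows named are those called in any fit, the 10 with the highest totals (1 of them is not reported here), and those with the largest differences kept in both replicates. Other clusters and windows, such as empty runs and single-gene clusters, were picked after their values were seen.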

Additional observations from a re-analysis of the deposited data

How the results depend on the processing

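The 129 share of OR windows, 48.5% as the mean of the replicates, was 47.98% with only windows that hold the start of an OR gene, 48.94% with OR pseudogenes, 49.25% without the cluster with the most OR windows, and 48.96% as the mean over the 12 clusters with 40 or more counts. The share of OR windows at 0 in every column, 30.1%, was 32.0% without replicate 1 and 53.2% without replicate 2. Each of these values asks only the 2 columns of 1 replicate, and the cause of the gap between them was not tested. The OR level relative to other windows, 0.707, was 0.982 relative to windows without a coding gene, or 0.750 and 0.854 in the 2 replicates with OR windows that hold another coding gene left out. OR window calls, 0 in the main test, were 5 with limma over all windows, whose pooled spread includes windows at 0, and 0 under every other alternative that tested OR windows. filterByExpr left no OR window to test, and leaving out a replicate left no residual degrees of freedom, so neither gave a count of calls. The replicate block changed no call of an OR window or cluster: 0 OR clusters passed with and without it. The log2 ratio of 129 to CAS changed sign with chromosome totals as library sizes in 9 of the 31 OR clusters tested. Under any alternative it changed sign in 4 of the 12 with 40 or more counts. The values without a replicate are log2 differences with a prior count added, unlike the fitted ratios beside them. Olfr310 to Olfr292 went from -0.20 to 0.23 without replicate 2 (-0.35 without replicate 1), Olfr467 to Olfr519 from -0.04 to 0.063 without replicate 2 (-0.12 without replicate 1) and 0.13 with chromosome totals as library sizes, Olfr24 to Olfr18 from -0.12 to 0.0043 without replicate 1 (-0.27 without replicate 2), and Olfr9 to Olfr827 from 0.40 to -0.058 with chromosome totals. The cause was not tested. Counts of 0 to 9 per window, and 1 library per replicate, limit what can be told apart.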
